A study of Mus musculus with 6 samples.

Results

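The 48 genes described here drive or mark the cell division cycle. They were chosen by symbol, as 8 G1 cyclins and kinases, 16 S phase genes and 24 mitosis genes, and all 48 were present among the 55367 gene symbols measured in each library. PolyA RNA-seq was made from mouse kidney cells that bind DBA, *Dolichos biflorus* agglutinin, a plant lectin that attaches to collecting duct epithelium, and the labels call the cells kidney tubular epithelial cells. There were 3 groups of 2 libraries, all labelled Day115, namely WT mice given saline, ADPKD mice given saline, and ADPKD mice given MMPP, a melanin-like nanoparticle injected into a vein. The ADPKD mice were males of the genotype *Pkd1*fl/fl;*Cre/Esr1*+, labelled *Pkd1*-/-, in which tamoxifen activates a Cre recombinase that removes part of *Pkd1*. The promoter behind this Cre is not given in the sources used here, the deletion was induced after birth, and cells that the recombinase missed keep the gene. The study names its genotypes as *Pkd1*+/+ and *Pkd1*-/-, without saying whether *Pkd1*+/+ mice carried the floxed gene. Whether the WT mice carried Cre or were given tamoxifen is not stated for these libraries. Loss of *Pkd1* therefore cannot be told apart from effects of Cre or tamoxifen in ADPKD against WT. The labels number the replicates without saying whether they came from separate animals, so p-values measure the spread between these libraries, which may be technical.

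A cell enters division when D-type cyclins bind CDK4 and CDK6, and cyclin E with CDK2 then carries it from G1 into S phase, when E2F factors switch on the genes that copy DNA. The MCM helicase is loaded on replication origins by CDC6 and CDT1, while geminin holds CDT1 back once copying has begun. In G2 and mitosis, cyclins A and B with CDK1 drive spindle assembly and chromosome segregation, and most of their genes are silent in resting cells. The adult kidney tubule divides rarely, and division of the cells that line the cysts is a known feature of polycystic kidney disease.

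The deposited values are FPKM, counts of fragments scaled for the length of the gene and the depth of the library. Low FPKM came in multiples of the worth of a single read, from which depth was estimated as 30.6 and 31.0 M reads in WT, 33.1 and 32.1 M in ADPKD, and 11.8 and 10.9 M in ADPKD+MMPP. Among genes with under 50 reads, odd read numbers made up 37.4% and 38.3% of the whole numbers in WT (to within 0.05 of a read), 37.7% and 39.1% in ADPKD, and 8.89% and 8.29% in ADPKD+MMPP. The ADPKD+MMPP libraries stood apart from the other 4 in depth and in the share of odd read numbers, whose origin was not tested, and treatment and this difference cannot be told apart. *Pkd1* itself (chr17:24549834-24596508, plus strand, GRCm38) had 17.7 and 17.2 FPKM in WT, 7.64 and 8.91 in ADPKD and 4.34 and 3.99 in ADPKD+MMPP. Its WT libraries were the highest and its ADPKD+MMPP libraries the lowest, with no overlap between any groups. The difference after MMPP was -0.84, and -0.18 and not called when centred by the sharing of exons between transcripts, as described with the MMPP results. Against WT, ADPKD differed by a log2 fold change of -0.998 (SE 0.13, adjusted p = 0.00566) in limma with Benjamini-Hochberg adjustment over all tested genes, as for every adjusted p given here.

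Collecting duct principal cell markers were abundant in all 6 libraries, with 2079 and 2776 FPKM in WT, 2482 and 942 in ADPKD, and 5417 and 5441 in ADPKD+MMPP summed over 8 genes. *Aqp2*, the water channel that vasopressin controls, was the most abundant of them at 1267 and 1776 FPKM in WT, 1392 and 677 in ADPKD and 3555 and 3499 in ADPKD+MMPP, whereas *Avpr2*, the vasopressin receptor, was at or near 0 in every library. Markers of other kidney cells were present too. The podocyte gene *Podxl* reached 475 and 609 FPKM in WT, and the endothelial gene *Cdh5* 167 and 131 FPKM in WT. *Kap*, of the proximal tubule, stood at 234 and 101 FPKM in WT, 509 and 64.0 in ADPKD and 12822 and 12116 in ADPKD+MMPP. The material was therefore rich in principal cell transcripts and was not of this cell type alone, and in such bulk RNA fewer cells of a type and less RNA per cell cannot be told apart.

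The summed FPKM of the mitosis genes was larger in both ADPKD libraries than in WT, and no difference between the lists was tested. Summed over the 24 mitosis genes, WT had 27.1 and 25.3 FPKM and ADPKD 60.2 and 40.7 FPKM. The 16 S phase genes summed to 113 and 118 FPKM in WT and 122 and 102 in ADPKD. The 8 G1 genes summed to 63.9 and 63.7 in WT and 83.5 and 59.0 in ADPKD, so that the ADPKD libraries lay on both sides of WT in these sums. *Pcna* made up 74.3 and 77.8 FPKM of the S phase sum in WT and 67.2 and 55.1 in ADPKD. *Ccnd1* made up 27.9 and 26.2 FPKM of the G1 sum in WT and 35.2 and 15.4 in ADPKD. Median FPKM of the S phase genes was 2.34 and 2.31 in WT and 3.51 and 2.55 in ADPKD. That of the G1 genes was 4.84 and 4.64 in WT and 3.95 and 4.40 in ADPKD. A gene was tested in limma on log2(FPKM + 1) if it had at least 1 FPKM in at least 2 libraries, which 37 of the 48 members did, and it counted as called if its fold change was 1.5 or more in either direction with an unadjusted p under 0.05. The log2 fold changes on this scale understate the change of genes with low FPKM.

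Of the 37 tested members, 14 rose in ADPKD and 2 fell, against 14.2% higher and 12.5% lower of all 14862 tested genes. The risers were 7 of 16 tested mitosis genes, 5 of 14 S phase genes and 2 of 7 G1 genes, and the fallers were 1 S phase and 1 G1 gene. After Benjamini-Hochberg adjustment, 10 higher and 2 lower members had an adjusted p under 0.05, against 11.9% and 10.6% of tested genes. Because a mitosis gene could enter the test through the groups where it was high, all 48 were also tested with no filter, which called 17 higher (11 mitosis, 5 S phase and 1 G1) and 2 lower, against 6.86% and 6.20% of 31205 genes. The ADPKD and WT libraries did not overlap for 36 of the 48, with 32 higher and 4 lower, where 35.5% and 31.5% of tested genes and 25.1% and 24.4% of genes above 0 in any library did the same. By list, 20 of 24 mitosis, 9 of 16 S phase and 3 of 8 G1 genes lay higher without overlap. Median log2 fold changes of tested members were 0.57 for mitosis, 0.21 for S phase and 0.11 for G1 genes, beside 0.03 for all tested genes.

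These counts depended on single libraries. Without ADPKD replicate 1, 9 members were called higher and 3 lower, against 16.6% and 16.1% of tested genes, and the median of the mitosis genes was 0.30 and that of the S phase genes 0.0623. Leaving out WT replicate 1 also left 9 higher, with 2 lower, against 12.5% and 11.2%. Without ADPKD replicate 2, 14 were higher and 2 lower, against 14.4% and 11.4%, with medians of 0.39 for S phase and 0.37 for G1 genes, and leaving out ADPKD replicate 1 or WT replicate 1 moved the G1 median to 0.20 and 0.18, and WT replicate 2 to 0.0448. ADPKD replicate 1 lay above replicate 2 for 22 of the 24 mitosis genes, 10 of the 16 S phase genes and 5 of the 8 G1 genes, and for 52.9% of all tested genes. The mitosis genes called higher were 3 without ADPKD replicate 1, 10 without ADPKD replicate 2, and 5 and 4 without WT replicate 1 and 2. The S phase genes called higher were 3 without WT replicate 1 or ADPKD replicate 2, and 1 G1 gene was higher when any of these 4 libraries was left out, with 2 lower without ADPKD replicate 1. Quantile normalization, median-ratio scaling and centring by exon sharing each gave 10 higher and 2 lower, and centring ended the calls of *Cks2* (0.44), *Birc5* (0.57), *Mcm7* (0.51) and *Mybl2* (0.58). Over all genes, these scalings called 13.3% higher and 14.3% lower, 12.6% and 13.8%, and 13.7% and 13.6%. With a stricter limit of a fold change of 2 or more, 4 of the 37 members were higher and 1 lower, against 6.84% and 6.29% of tested genes.

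**Figure D1:**
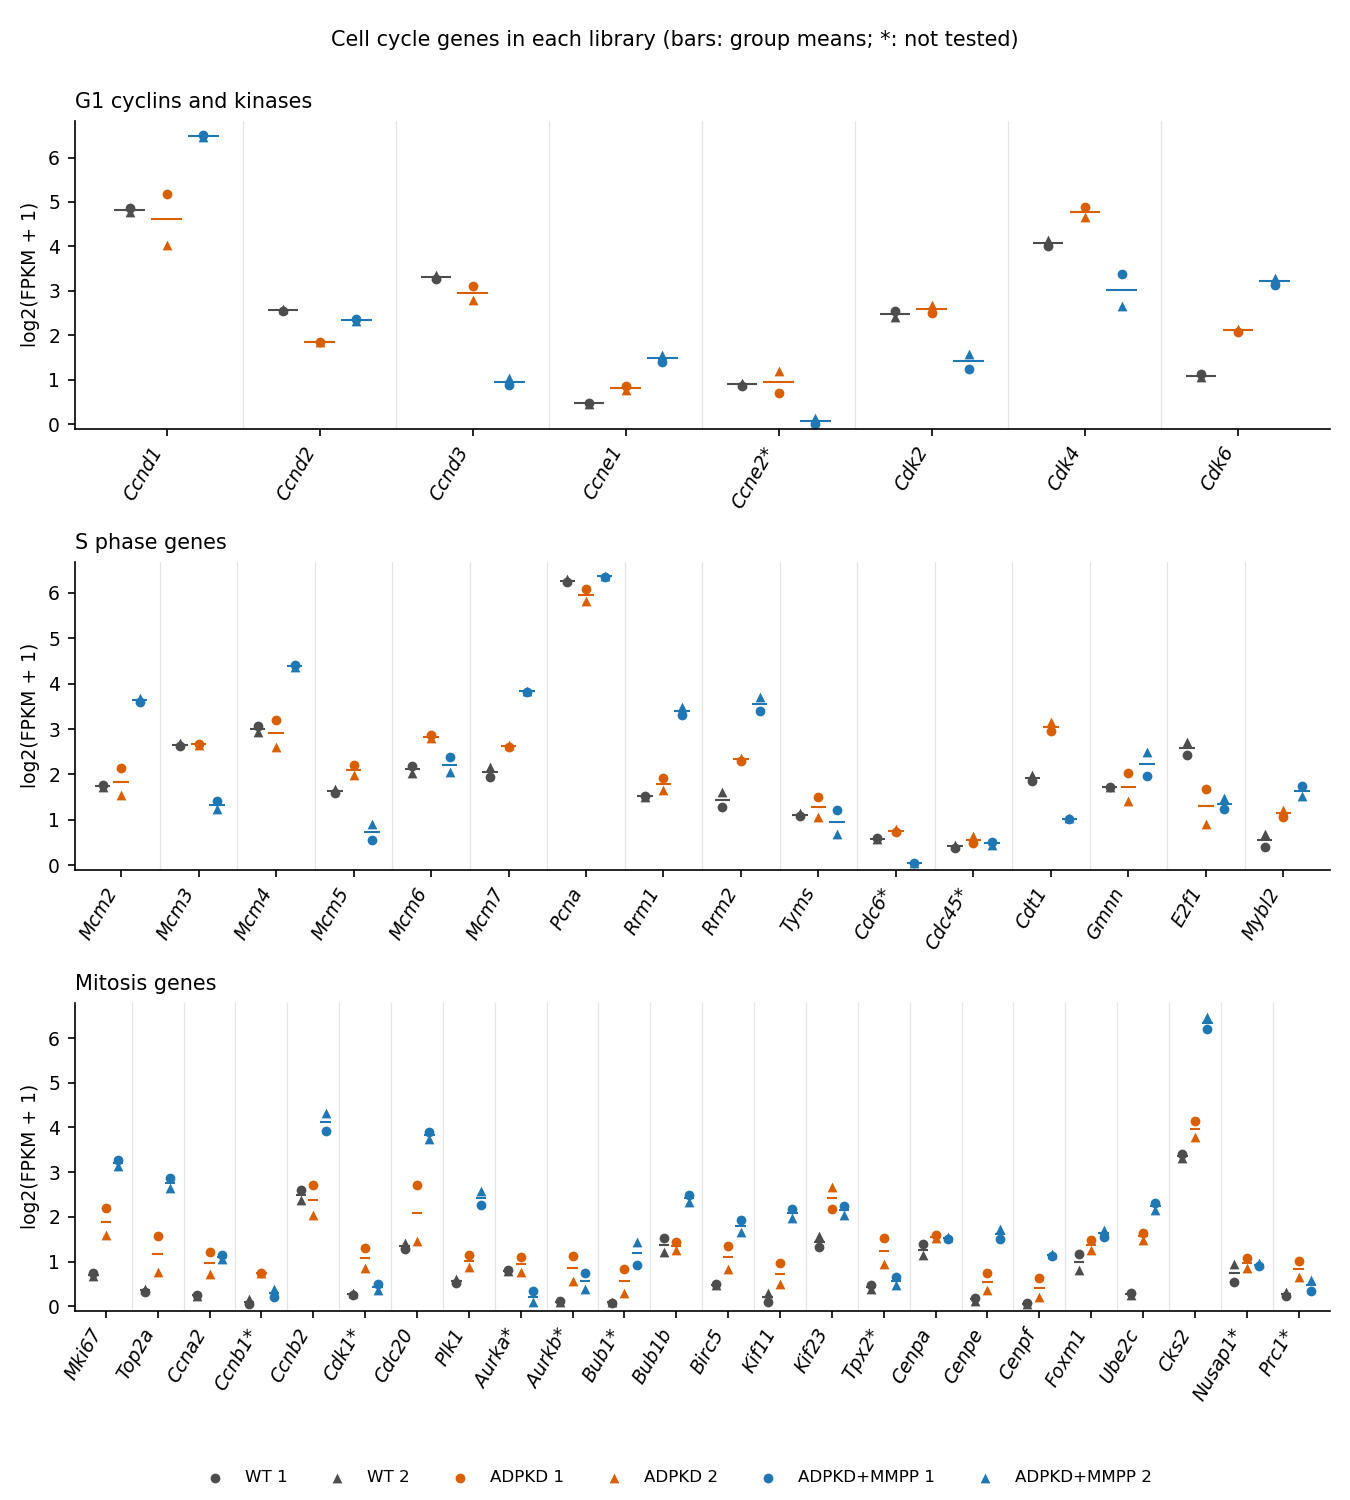
FPKM of the 48 members in each of the 6 libraries on a log2(FPKM + 1) axis, with points for single libraries, bars for group means, and an asterisk on the 11 members that were not tested. Most mitosis genes lie near the floor in WT and above it in both ADPKD libraries, with ADPKD replicate 1 above replicate 2 for 22 of 24.

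*Mki67*, which encodes the Ki-67 protein that coats mitotic chromosomes and marks dividing cells, had 0.666 and 0.594 FPKM in WT, 3.59 and 2.02 in ADPKD and 8.64 and 7.85 in ADPKD+MMPP (chr7:135689784-135716361, minus strand). Both ADPKD libraries lay well above both WT libraries, and replicate 1 lay above replicate 2. The mean was 4.44 times that of WT, and the log2 fold change was 1.19 (SE 0.21, adjusted p = 0.0137). In reads, this was 205 and 185 in WT against 1193 and 650 in ADPKD. *Ube2c*, the ubiquitin-conjugating enzyme that works with the anaphase-promoting complex, had 0.226 and 0.199 FPKM in WT, 2.14 and 1.79 in ADPKD and 3.97 and 3.49 in ADPKD+MMPP. Its WT libraries were near the floor, and the ADPKD libraries lay close to each other far above them, the highest log2 fold change of any tested mitosis gene at 1.29 (SE 0.13, adjusted p = 0.00366). *Ube2c* shares 22.8% of its exon bases with *Tnnc2* on the opposite strand, and whether the counting used strand is not given in the sources used here.

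*Top2a*, the topoisomerase that untangles sister chromatids, had 0.258 and 0.305 FPKM in WT and 1.99 and 0.709 in ADPKD. Both ADPKD libraries were above WT, and replicate 1 lay far above replicate 2. Its log2 fold change of 0.82 (SE 0.27, adjusted p = 0.0757) was called, and it was 0.42 and not called without ADPKD replicate 1, and not called at 0.79 or 0.85 without WT replicate 1 or 2. *Ccna2*, cyclin A, had 0.192 and 0.182 FPKM in WT and 1.33 and 0.642 in ADPKD. The groups did not overlap, and the difference between the ADPKD libraries was again in favour of replicate 1. It rose by 0.72 (SE 0.19, adjusted p = 0.0392), and without ADPKD replicate 1 the value was 0.47 and not called. *Cks2*, a small subunit that binds CDK1, was the most abundant mitosis gene with 9.69 and 8.96 FPKM in WT and 16.7 and 12.8 in ADPKD. Here WT was already well expressed, and the rise to 1.58 times WT (log2 fold change 0.60, adjusted p = 0.0528) lost its call without ADPKD replicate 1 (0.42) or WT replicate 2 (0.55).

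The other risers were *Kif23*, a kinesin of the midzone needed for cytokinesis, and *Birc5*, survivin of the chromosomal passenger complex. *Kif23* had 1.498 and 1.97 FPKM in WT and 3.51 and 5.33 in ADPKD, with log2 fold change 0.97 (SE 0.20, adjusted p = 0.0212). It differed from most of the list in that ADPKD replicate 2 was the higher of the pair. *Birc5* had 0.413 and 0.389 FPKM in WT and 1.56 and 0.789 in ADPKD, with log2 fold change 0.61 (adjusted p = 0.0775). Again the groups did not overlap, and replicate 1 was the higher ADPKD library. *Birc5* lost its call without ADPKD replicate 1 (0.35), WT replicate 1 (0.62) or WT replicate 2 (0.60).

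Several core mitotic genes were too low to be tested, yet separated the groups. *Cdk1*, the kinase that drives entry into mitosis, had 0.186 and 0.229 FPKM in WT and 1.49 and 0.822 in ADPKD, or 28 and 35 reads against 243 and 130. *Ccnb1*, its cyclin B1 partner, had 0.0310 and 0.123 FPKM in WT and 0.674 and 0.688 in ADPKD, or 4 and 16 reads against 94 and 93. Every ADPKD library was several times above every WT library for both genes, and the ADPKD libraries were alike for *Ccnb1* while replicate 1 was higher for *Cdk1*. With no filter, *Cdk1*, *Ccnb1*, *Aurkb* and *Tpx2* were called higher. *Aurkb*, the kinase of the passenger complex, had 0.0888 and 0.0658 FPKM in WT and 1.20 and 0.487 in ADPKD, and *Tpx2*, which activates Aurora A on the spindle, had 0.392 and 0.304 FPKM in WT and 1.87 and 0.940 in ADPKD. *Bub1* and *Prc1* did not overlap between groups either but were not called, whereas *Aurka* (0.749 and 0.727 FPKM in WT and 1.15 and 0.715 in ADPKD) and *Nusap1* overlapped.

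Other mitosis genes were not called. *Ccnb2*, the other B-type cyclin, had 5.04 and 4.18 FPKM in WT, 5.61 and 3.14 in ADPKD and 14.2 and 18.9 in ADPKD+MMPP. WT lay between the ADPKD libraries, and the log2 fold change was -0.10 (SE 0.26, adjusted p = 0.812). *Bub1b*, the spindle checkpoint kinase BubR1, overlapped likewise with 1.90 and 1.31 FPKM in WT and 1.72 and 1.40 in ADPKD (log2 fold change -0.02). *Cdc20*, the activator of the anaphase-promoting complex, had 1.45 and 1.68 FPKM in WT and 5.55 and 1.75 in ADPKD. Only ADPKD replicate 1 stood clearly above WT, so that a log2 fold change of 0.73 (SE 0.39, adjusted p = 0.219) was not called, and without ADPKD replicate 2 it was 1.35 and called. *Foxm1*, the transcription factor that turns on G2 genes, had 1.24 and 0.758 FPKM in WT and 1.79 and 1.40 in ADPKD, without overlap but with a difference of 0.38 that was not called (adjusted p = 0.151). *Plk1*, *Kif11*, *Cenpa*, *Cenpe* and *Cenpf* had higher values in both ADPKD libraries than in WT and were not called, and their log2 fold changes lay between 0.29 and 0.53. Without ADPKD replicate 2, *Kif11* (0.77) and *Cenpe* (0.59) were called higher. In WT, 10 of the 16 tested mitosis genes had a mean under 1 FPKM, where the log2(FPKM + 1) scale compresses differences: the median ratio of mean FPKM over all 24 was 3.88, against 1.35 for S phase and 1.10 for G1 genes.

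Of the tested S phase genes, *Cdt1*, *Rrm2*, *Mcm6*, *Mcm7* and *Mybl2* rose and *E2f1* fell. *Cdt1*, the licensing factor, had 2.59 and 2.99 FPKM in WT, 6.72 and 7.87 in ADPKD and 1.02 and 1.05 in ADPKD+MMPP. Both ADPKD libraries were more than 2 times the level of either WT library, and the log2 fold change was 1.13 (SE 0.13, adjusted p = 0.00489). *Rrm2*, the regulated subunit of the enzyme that makes deoxyribonucleotides, had 1.43 and 2.06 FPKM in WT and 3.90 and 4.18 in ADPKD, also without overlap and with replicates close to each other (log2 fold change 0.88 (SE 0.17, adjusted p = 0.0176)). *Rrm1*, its partner subunit, had 1.89 and 1.85 FPKM in WT and 2.77 and 2.14 in ADPKD and was not called.

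Of the 6 subunits of the MCM helicase, which work as a single ring, 2 were called and 4 were not. *Mcm6* had 3.56 and 3.11 FPKM in WT and 6.27 and 5.94 in ADPKD and *Mcm7* had 2.83 and 3.45 FPKM in WT and 5.10 and 5.30 in ADPKD, and for both, ADPKD was above WT in every library. Their log2 fold changes were 0.71 (adjusted p = 0.0232) and 0.59 (adjusted p = 0.0234), and *Mcm7* was no longer called without WT replicate 1 (0.48) or ADPKD replicate 2 (0.56). *Mcm2* had 2.39 and 2.33 FPKM in WT and 3.42 and 1.91 in ADPKD and *Mcm4* 7.43 and 6.69 FPKM in WT and 8.25 and 5.12 in ADPKD, where ADPKD replicate 1 was above and replicate 2 below WT. *Mcm3*, with 5.18 and 5.41 FPKM in WT and 5.40 and 5.29 in ADPKD, did not separate the groups at all, and *Mcm5*, with 2.03 and 2.18 FPKM in WT and 3.60 and 2.97 in ADPKD, did so without a call (log2 fold change 0.46).

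*Pcna*, the sliding clamp of DNA polymerases, which also serves in DNA repair, was the most abundant S phase gene, with 74.3 and 77.8 FPKM in WT and 67.2 and 55.1 in ADPKD. ADPKD was the lower group in both libraries, and the difference of -0.32 (adjusted p = 0.146) was not called. *E2f1*, a transcription factor that turns on S phase genes, fell in ADPKD. It had 4.37 and 5.61 FPKM in WT, 2.20 and 0.890 in ADPKD and 1.34 and 1.80 in ADPKD+MMPP. Each ADPKD library lay below each WT library, with replicate 2 the lowest, and the log2 fold change was -1.28 (SE 0.28, adjusted p = 0.0237). *Mybl2*, which works with the MuvB complex on late cell cycle genes, had 0.325 and 0.607 FPKM in WT and 1.10 and 1.31 in ADPKD. It rose by 0.60 (adjusted p = 0.0393) without overlap of the groups, and lost its call without WT replicate 1 (0.46) or ADPKD replicate 2 (0.53). *Tyms* and *Gmnn* overlapped between the groups, and *Cdc6* (0.513 and 0.488 FPKM in WT and 0.653 and 0.734 in ADPKD) and *Cdc45* (0.308 and 0.369 FPKM in WT and 0.414 and 0.552 in ADPKD) were under 1 FPKM in every library and were not tested.

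Of the 7 tested G1 genes, *Cdk6* and *Cdk4* rose, *Ccnd2* fell and the others were not called. *Cdk6* had 1.18 and 1.07 FPKM in WT, 3.22 and 3.42 in ADPKD and 7.80 and 8.84 in ADPKD+MMPP (chr5:3341485-3531008, plus strand). The ADPKD libraries lay close together and far above the WT libraries, and the rise of 1.02 (SE 0.12, adjusted p = 0.00506), to 2.94 times the WT mean, was the largest of the G1 list. *Cdk4*, the other kinase that cyclin D binds, had 15.2 and 16.6 FPKM in WT and 28.7 and 24.3 in ADPKD. The groups did not overlap, but the call on a log2 fold change of 0.70 (SE 0.25, adjusted p = 0.0930) was lost when any 1 of the 4 libraries compared was left out, with values of 0.64 without WT replicate 1, 0.76 without WT replicate 2, 0.58 without ADPKD replicate 1 and 0.81 without ADPKD replicate 2. *Cdk4* shares 19.7% of its exon bases with *Tspan31* on the opposite strand. *Ccnd2*, cyclin D2, was the G1 gene that fell, with 4.85 and 4.98 FPKM in WT and 2.62 and 2.62 in ADPKD. The replicates of each group lay close together with no overlap between groups, and the log2 fold change was -0.71 (SE 0.11, adjusted p = 0.00910).

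In WT and ADPKD+MMPP the most abundant member of the G1 list was *Ccnd1*, cyclin D1, while *Cdk4* had the higher mean in ADPKD. *Ccnd1* had 27.9 and 26.2 FPKM in WT, 35.2 and 15.4 in ADPKD and 90.0 and 87.5 in ADPKD+MMPP. The ADPKD libraries lay on either side of WT, replicate 1 above and replicate 2 below, and the difference of -0.20 (SE 0.36, adjusted p = 0.708) was not called. Leaving out ADPKD replicate 1 brought it to -0.77, which was called. *Ccnd1* shares 23.4% of its exon bases with *LTO1* on the opposite strand, and *Ccne2*, *Ccna2* and *Prc1* share 17.4%, 12.5% and 11.1% with *Ints8*, *Exosc9* and *Rccd1*. *Ccnd3*, cyclin D3, had 8.70 and 9.32 FPKM in WT and 7.62 and 5.94 in ADPKD, lower in both ADPKD libraries without a call (log2 fold change -0.37, adjusted p = 0.131). *Ccne1*, cyclin E1, had 0.393 and 0.376 FPKM in WT and 0.806 and 0.691 in ADPKD. Its ADPKD mean was 1.95 times that of WT with no overlap, but at under 1 FPKM the log2 fold change of 0.34 was not called (adjusted p = 0.0909). *Ccne2* (0.814 and 0.915 FPKM in WT and 0.623 and 1.28 in ADPKD, not tested) and *Cdk2* (4.83 and 4.30 FPKM in WT and 4.68 and 5.37 in ADPKD) overlapped between the groups.

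Inhibitors of cyclin-dependent kinases changed in both directions. *Cdkn2b*, which encodes the CDK4 and CDK6 inhibitor p15, had 7.04 and 8.18 FPKM in WT, 29.0 and 33.2 in ADPKD and 48.01 and 57.4 in ADPKD+MMPP. Both ADPKD libraries lay far above WT, with a log2 fold change of 1.90 (SE 0.15, adjusted p = 0.00308). *Cdkn2a*, the locus of p16 and ARF, had 0.251 and 0.165 FPKM in WT and 1.70 and 6.39 in ADPKD and rose by 1.89 (adjusted p = 0.0300), here with replicate 2 the higher ADPKD library, and by 1.16, still called, without that library. *Cdkn2c*, p18, had 2.76 and 2.51 FPKM in WT and 5.13 and 4.65 in ADPKD and rose by 0.69 (adjusted p = 0.0137). The last of this family, *Cdkn2d*, p19, went the other way. It had 27.3 and 29.1 FPKM in WT and 14.5 and 12.9 in ADPKD, with log2 fold change -0.99 (SE 0.12, adjusted p = 0.00529).

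*Cdkn1c*, p57, which is high in podocytes, had 52.6 and 82.0 FPKM in WT, 15.1 and 7.24 in ADPKD and 0.332 and 0.674 in ADPKD+MMPP. ADPKD was far below WT in both libraries, with a log2 fold change of -2.54 (SE 0.37, adjusted p = 0.00798), and the 4 podocyte markers of the list all fell too, from a summed 810 and 1111 FPKM in WT to 180 and 70.7 in ADPKD, with *Podxl* the most abundant. The part of this in the *Cdkn1c* result was not tested. *Cdkn1a*, p21, had 160 and 158 FPKM in WT and 128 and 175 in ADPKD and *Cdkn1b*, p27, had 16.2 and 16.1 FPKM in WT and 13.5 and 16.9 in ADPKD. In both cases WT lay between the ADPKD libraries, and neither was called (log2 fold changes -0.09 and -0.09). The pocket proteins that hold E2F factors in check were not called either: *Rb1* had 8.66 and 7.92 FPKM in WT and 7.07 and 6.48 in ADPKD, *Rbl1* 1.599 and 1.18 FPKM in WT and 1.89 and 0.859 in ADPKD and *Rbl2* 4.71 and 5.05 FPKM in WT and 4.32 and 3.87 in ADPKD, with log2 fold changes of -0.26, -0.04 and -0.21.

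Further cell cycle genes were followed in 9 lists by role, with 154 genes, all but *Skp1* present in the files. Of these, 38 were too low to be tested, and of the rest 23 rose and 6 fell in ADPKD, beside 14.2% and 12.5% of all tested genes. With no filter, 23 rose and 6 fell among 153, beside 6.86% and 6.20% of genes. Other cyclins, kinases and kinase activators had 7 of 12 tested genes higher and 0 lower, with a median log2 fold change of 0.79, and mitotic kinesins and cytokinesis genes had 6 of 9 higher and 0 lower, with a median of 0.81. Origin firing and replication fork genes had 3 higher and 1 lower of 29, with a median of 0.07, which became 5 higher without WT replicate 2 or ADPKD replicate 2 (1 and 0 lower), 1 higher and 2 lower without ADPKD replicate 1, and 2 higher and 2 lower without WT replicate 1. The retinoblastoma, E2F and DREAM list had 1 higher of 15 and 0 lower, or 1 lower without WT replicate 1 or ADPKD replicate 2. Kinetochore and spindle checkpoint genes were 3 higher and 2 lower of 11, but 2 and 0 without WT replicate 1, 2 and 1 without WT replicate 2, and 1 and 1 without ADPKD replicate 1. Cohesin and condensin genes had 0 higher and 1 lower of 12, with 2 lower without ADPKD replicate 1, and 1 higher and 0 lower without ADPKD replicate 2. None of 3 tested checkpoint kinase genes and none of 17 tested ubiquitin ligase genes was called in limma, and 1 ubiquitin ligase gene was higher and 1 lower without ADPKD replicate 1. The CDK inhibitors above were 3 higher and 2 lower of 7.

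Outside the CDK inhibitors, *Cks1b* and *Stmn1* had the largest called changes of these lists. *Cks1b*, the relative of *Cks2*, had 1.74 and 2.32 FPKM in WT and 8.62 and 6.59 in ADPKD (log2 fold change 1.501, adjusted p = 0.00472). *Stmn1*, which destabilises microtubules, had 5.34 and 5.33 FPKM in WT and 22.9 and 11.5 in ADPKD (log2 fold change 1.45, adjusted p = 0.0218). *Wee1*, the kinase that restrains CDK1, had 18.4 and 20.8 FPKM in WT and 46.0 and 61.4 in ADPKD (log2 fold change 1.40, adjusted p = 0.00562). In all 3 the ADPKD libraries lay above both WT libraries. *Ccnf* (1.40), *Lin9* (1.28), *Uhrf1* (1.22), *Ckap2* (1.07), *Anln* (0.93), *Zwint* (0.88), *Cdca8* (0.78), *Orc6* (0.73) and *Tk1* (0.69) were among the others that rose, with log2 fold changes in brackets. *Cdca8* lost its call without ADPKD replicate 1 (0.57), *Tk1* without ADPKD replicate 1 (0.57), and *Orc6* without WT replicate 1 (0.52), ADPKD replicate 1 (0.74) or ADPKD replicate 2 (0.72). *Spc25*, of the kinetochore, fell with 4.24 and 3.94 FPKM in WT and 2.30 and 0.851 in ADPKD (log2 fold change -1.04, adjusted p = 0.0396), and *Stag2*, of cohesin, fell with 14.4 and 15.4 FPKM in WT and 9.76 and 8.62 in ADPKD (log2 fold change -0.64, adjusted p = 0.0202). *Spc25* was not called without WT replicate 1 (-1.0005) and stood at -0.63 without ADPKD replicate 2, and *Stag2* was not called without ADPKD replicate 2 (-0.56).

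Markers of cells other than collecting duct epithelium moved with the same contrast, in which 14.2% of tested genes were higher and 12.5% lower. All 7 macrophage markers rose, from a summed 68.3 and 67.9 FPKM in WT to 523 and 633 in ADPKD, with *Lyz2* the most abundant in ADPKD at 188 and 224 FPKM against 7.63 and 8.69 in WT. Of 7 fibroblast and pericyte markers, 5 rose and 1 fell, from a sum of 105 and 84.1 to 153 and 172 FPKM. *Pdgfrb* was the most abundant in WT and in ADPKD, and *Col1a1* went from 0.364 and 0.389 to 32.3 and 33.4 FPKM. Of 5 general leukocyte markers, 4 rose, from 35.5 and 23.1 to 49.9 and 51.9 FPKM, with *Cd53* the most abundant. Of the T cell markers, *Cd3d*, *Cd3e*, *Cd3g*, *Cd8a* and *Cd2* were under 1 FPKM in all WT and ADPKD libraries. The T cell list had 1 higher of 1 tested (sums of 1.40 and 0.574 FPKM in WT and 2.19 and 1.35 in ADPKD), the neutrophil list 1 higher of 3, or 3 without ADPKD replicate 1 (4.17 and 2.04, and 2.73 and 12.9 FPKM), and the erythroid list 0 of 2 (4.49 and 6.98, and 3.18 and 2.30 FPKM). The B cell list had 0 higher and 1 lower of 2 tested (4.60 and 2.88 FPKM in WT and 4.14 and 1.84 in ADPKD). The lower gene was *Cd79a*, at -0.93, and at -0.81 without WT replicate 1. The part of these cells in the cell cycle result was not tested.

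Beside the same shares of 14.2% and 12.5%, all 7 intercalated cell markers fell, from 274 and 290 FPKM in WT to 63.4 and 29.2 in ADPKD, with *Slc26a4* the most abundant in WT. Of 7 endothelial markers, 6 fell and *Plvap* rose, from a sum of 879 and 728 to 528 and 546 FPKM. Without WT replicate 1 or ADPKD replicate 1, 4 endothelial markers were called lower. Thick limb and distal convoluted tubule markers were 3 lower of 6, at 1301 and 517 FPKM in WT and 631 and 191 in ADPKD, with *Umod* the most abundant. They were 1 higher and 1 lower without WT replicate 1, 5 lower without ADPKD replicate 1, and 2 lower without WT replicate 2, ADPKD replicate 2 or either ADPKD+MMPP library. Proximal tubule markers were 3 higher and 1 lower of 12, at 736 and 400 and at 881 and 281 FPKM, but 2 higher and 5 lower without ADPKD replicate 1, 4 and 0 without WT replicate 1, and 2 and 1 without WT replicate 2. Principal cell markers were 1 higher (*Aqp4*, named for this call) of 7 tested. That call was lost without WT replicate 1 (1.32) or WT replicate 2 (1.19), and the value was 0.67 without ADPKD replicate 1, when the other 6 tested markers, *Aqp2* among them, were called lower. Without ADPKD replicate 2, 2 were higher. Dissociation and stress genes were 6 lower of 10, at 9807 and 10477 FPKM in WT and 6003 and 4456 in ADPKD, with *Junb* the most abundant. The part of any of these lists in the cell cycle result was not tested.

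The promoters of the members were searched for short motifs known from cell cycle genes. RefSeq promoter windows of GRCm38.p6, from 250 bases before to 50 after each start (300 bases), were at hand for 39 of the 48 members and for 27025 genes in all. Of the members, *Ccnd1*, *Ccnd2*, *Ccne2*, *Mcm4*, *Gmnn*, *Ccna2*, *Aurkb*, *Tpx2* and *Foxm1* had no entry. The CHR element, TTTGAA or TTCAAA on the other strand, is the known contact of the MuvB complex, and it was present in 14 of 20 mitosis genes, 2 of 14 S phase genes and 0 of 5 G1 genes, against 20.2% of all genes. In 13 of these 14 mitosis genes, all but *Mki67*, a CHR lay within 60 bases before the start or after it, as in 6.36% of all genes. The CCAAT box, CCAAT or ATTGG, bound by NF-Y, was in 18 of 20 mitosis, 9 of 14 S phase and 2 of 5 G1 genes, against 41.1% of genes, and 12 mitosis and 6 S phase genes held at least 2 in a window, as did 13.3% of genes. Both elements shared a window in the 14 mitosis genes with a CHR, against 7.97% of genes, and in no member did they overlap.

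An E2F motif (TTTCCCGC, TTTGGCGC, TTTCGCGC or TTTGCCGC, or on the other strand GCGGGAAA, GCGCCAAA, GCGCGAAA or GCGGCAAA) was in 6 of 14 S phase genes (*Cdc6*, *Cdt1*, *Mcm3*, *Mcm5*, *Mcm6* and *Mcm7*), in *Cdk2* among 5 G1 genes and in *Cdk1* among 20 mitosis genes, against 2.61% of all genes. The CRE, TGACGTCA, which reads the same on both strands and is the site of CREB, was in *Mcm5* and *Cenpe*, against 2.03% of genes. Such a match describes the letters only. Within the mitosis list, *Mki67*, *Top2a*, *Ube2c* and *Kif23* hold a CHR and rose in ADPKD, *Ccnb2*, *Bub1b*, *Cdc20*, *Plk1*, *Kif11*, *Cenpa* and *Cenpf* hold it and were not called, *Cdk1*, *Aurka* and *Prc1* hold it and were not tested, and *Cks2* and *Birc5* rose with no such letters in their windows.

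**Figure D2:**
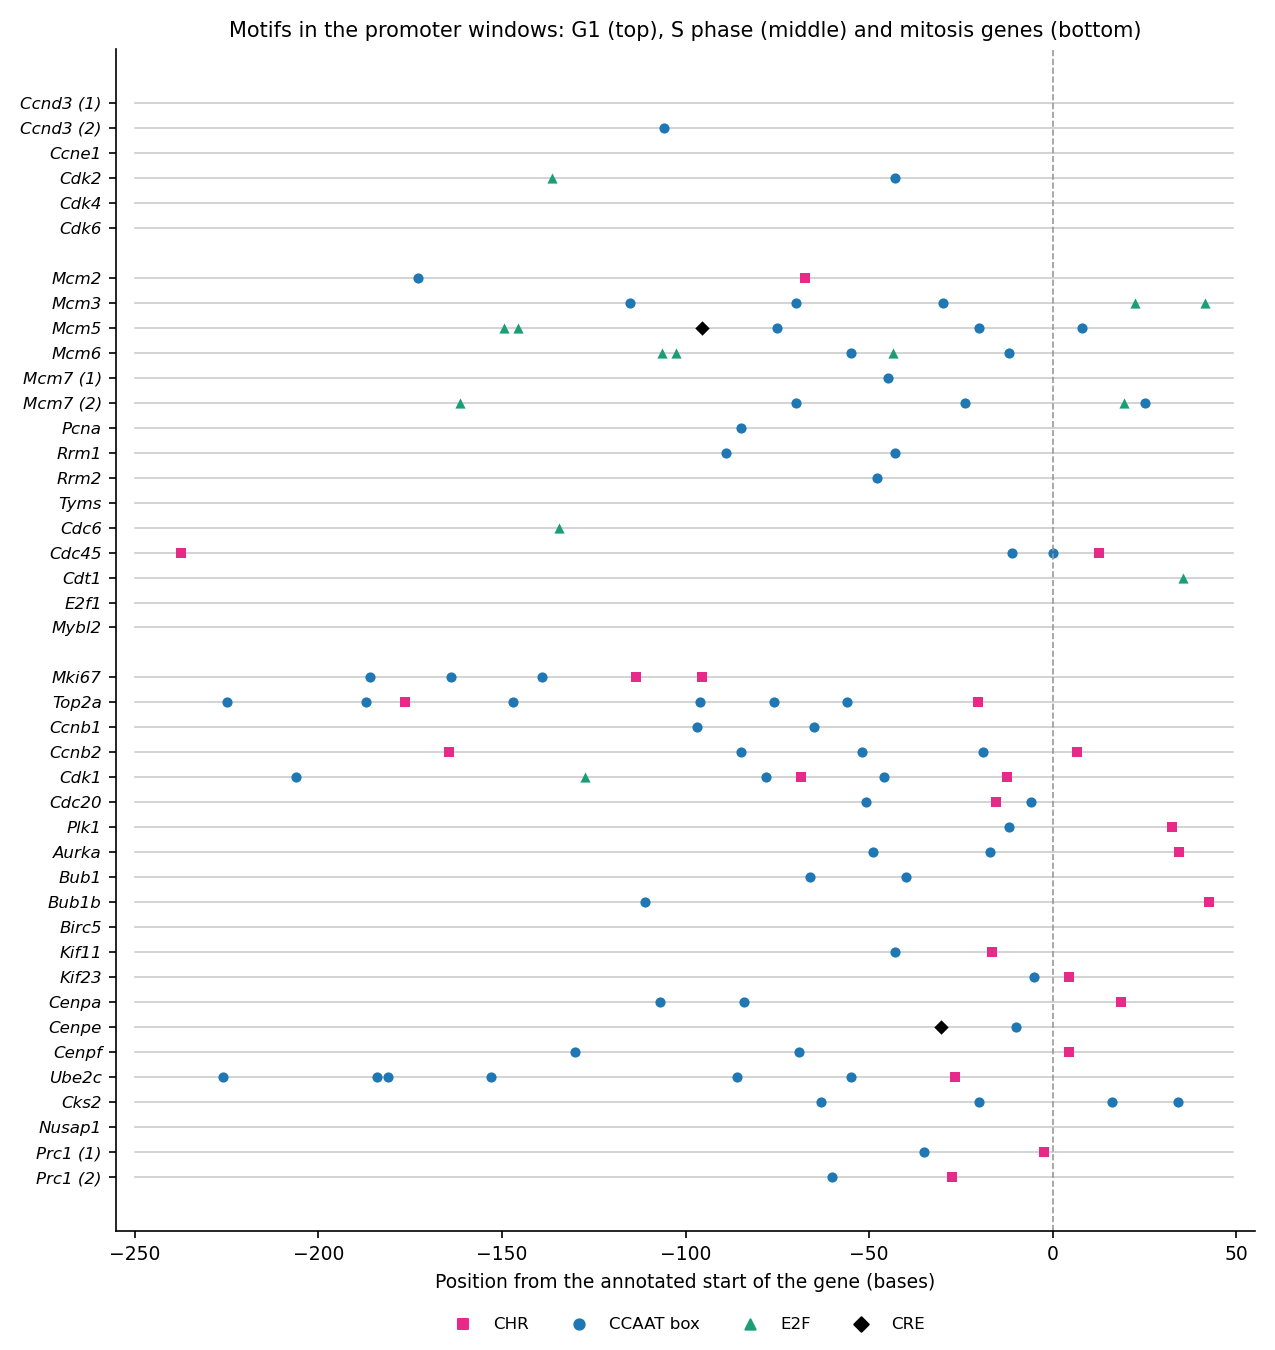
Positions of CHR, CCAAT box, E2F and CRE letters on either strand, in bases from the start, in the 39 members with a RefSeq window, with G1 genes at the top, S phase genes in the middle and mitosis genes at the bottom. CHR letters lie near the start in 13 of 20 mitosis genes, and E2F letters are found mostly in S phase genes.

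The following promoters, read 5′ to 3′ from 200 bases before to 20 after the start (220 bases, RefSeq, GRCm38.p6), are shown for mitosis genes with both elements, of which some rose in ADPKD and some did not. Capitals mark the CHR and the CCAAT box on either strand. They are *Mki67* at chr7:135716360-135716579 on the minus strand, *Top2a* at chr11:99024170-99024389 on the minus strand, *Ube2c* at chr2:164769729-164769948 on the plus strand, *Cdk1* at chr10:69352893-69353112 on the minus strand, *Cdc20* at chr4:118437324-118437543 on the minus strand and *Ccnb2* at chr9:70421535-70421754 on the minus strand. *Mki67*, *Top2a* and *Ube2c* rose in ADPKD, *Cdk1* was not tested and was called higher with no filter, and *Cdc20* and *Ccnb2* were not called.
Mki67: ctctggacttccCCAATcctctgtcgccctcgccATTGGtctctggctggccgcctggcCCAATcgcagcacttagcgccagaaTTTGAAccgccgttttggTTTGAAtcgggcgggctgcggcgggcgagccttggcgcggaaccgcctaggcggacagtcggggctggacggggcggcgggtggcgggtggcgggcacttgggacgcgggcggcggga
Top2a: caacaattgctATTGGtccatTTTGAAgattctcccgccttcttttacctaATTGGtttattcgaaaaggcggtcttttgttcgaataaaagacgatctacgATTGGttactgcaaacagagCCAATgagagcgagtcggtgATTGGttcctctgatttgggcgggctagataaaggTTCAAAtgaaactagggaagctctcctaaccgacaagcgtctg
Ube2c: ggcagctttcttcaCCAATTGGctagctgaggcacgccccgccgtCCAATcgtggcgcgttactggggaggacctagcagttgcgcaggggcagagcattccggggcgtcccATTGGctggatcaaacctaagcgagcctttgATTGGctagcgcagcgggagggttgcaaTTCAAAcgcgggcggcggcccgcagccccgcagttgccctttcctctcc
Cdk1: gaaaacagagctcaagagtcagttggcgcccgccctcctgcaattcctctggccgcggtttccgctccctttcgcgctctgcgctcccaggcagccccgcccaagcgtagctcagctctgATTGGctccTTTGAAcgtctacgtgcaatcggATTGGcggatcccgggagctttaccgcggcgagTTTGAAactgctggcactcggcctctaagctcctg
Cdc20: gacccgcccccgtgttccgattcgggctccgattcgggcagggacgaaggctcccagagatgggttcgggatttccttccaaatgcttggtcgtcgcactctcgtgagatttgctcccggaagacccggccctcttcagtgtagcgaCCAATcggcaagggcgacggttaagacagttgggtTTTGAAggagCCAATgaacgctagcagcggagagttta
Ccnb2: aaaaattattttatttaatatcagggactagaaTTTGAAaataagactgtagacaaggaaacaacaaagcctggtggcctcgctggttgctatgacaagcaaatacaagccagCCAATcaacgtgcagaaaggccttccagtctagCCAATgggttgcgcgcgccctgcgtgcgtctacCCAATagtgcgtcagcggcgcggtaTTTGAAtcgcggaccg

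For comparison, *Mcm5* at chr8:75109309-75109528 on the plus strand and *Mcm6* at chr1:128359686-128359905 on the minus strand are helicase genes whose promoters hold E2F letters, given in capitals, where overlapping matches form a single run. *Mcm6* rose in ADPKD and *Mcm5* was not called.
Mcm5: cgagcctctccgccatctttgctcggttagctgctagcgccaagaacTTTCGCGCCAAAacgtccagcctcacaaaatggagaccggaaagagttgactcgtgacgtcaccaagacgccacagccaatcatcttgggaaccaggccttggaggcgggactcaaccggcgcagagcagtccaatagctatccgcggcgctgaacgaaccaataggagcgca
Mcm6: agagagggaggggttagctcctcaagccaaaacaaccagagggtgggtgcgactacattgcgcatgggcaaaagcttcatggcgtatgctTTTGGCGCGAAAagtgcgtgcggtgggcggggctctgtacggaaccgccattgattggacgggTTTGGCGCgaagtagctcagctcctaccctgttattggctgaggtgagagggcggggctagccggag

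In ADPKD+MMPP against ADPKD, treatment cannot be told apart from the difference of these libraries in depth and odd read numbers. Here 14 of the 24 mitosis genes lay higher without overlap and 5 lower. Of tested genes 36.1% and 51.7% did the same, and of genes above 0 in any library 22.7% and 38.7%. The mitosis genes summed to 150 and 166 FPKM in ADPKD+MMPP, against 60.2 and 40.7 in ADPKD. S phase genes summed to 160 and 164 FPKM and G1 genes to 115.2 and 111, above the ADPKD sums of 122 and 102 and of 83.5 and 59.0. *Ccnd1* made up 90.0 and 87.5 FPKM of the G1 sum in ADPKD+MMPP, and *Pcna* 81.1 and 81.7 of the S phase sum. Median FPKM of the G1 genes went from 3.95 and 4.40 in ADPKD to 2.90 and 3.02 in ADPKD+MMPP. That of the S phase genes went from 3.51 and 2.55 to 2.62 and 2.52. This comparison uses the same ADPKD libraries as the one above, so that a high value of an ADPKD library raises one change and lowers the other.

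Of 37 tested members, 20 rose and 7 fell, against 27.9% higher and 43.0% lower of all tested genes. They were 12 higher of 16 mitosis genes with 0 lower, 5 higher and 4 lower of 14 S phase genes, and 3 higher and 3 lower of 7 G1 genes. With no filter, 20 were higher and 12 lower of 48, 12 of the higher and 3 of the lower ones in the mitosis list, against 13.8% and 21.7% of genes. Some members entered the test only through the treated libraries. *Kif11*, *Cenpe*, *Cenpf* and the G1 gene *Ccne1* were under 1 FPKM in all WT and ADPKD libraries. *Top2a*, *Ccna2*, *Plk1* and *Birc5* reached 1 FPKM in ADPKD replicate 1 alone of those libraries. Median log2 fold changes were 1.06 for mitosis, 0.46 for S phase and 0.49 for G1 genes, and -0.36 for all tested genes, and the S phase median was 0.23 without ADPKD replicate 2. With no filter they were 0.65, 0.24 and -0.19, beside -0.0497 for all genes, and the G1 median was -0.34 over genes with 1 FPKM in 4 libraries.

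The change went with how many of a gene's exon bases lie in exactly 1 annotated transcript (GENCODE vM21), that is, are not shared between transcripts. Across the 37 tested members, which share all libraries, this share had a Spearman rho of 0.653 with the log2 fold change after MMPP and of 0.0377 with that in ADPKD against WT. Of 22 members with at least 60% of bases in 1 transcript, 18 rose, 1 fell and 3 were not called after MMPP, with a median of 1.21, where 45.4% of all tested genes on that side of the limit were higher and 22.9% lower. Of 15 members under 60%, 2 rose, 6 fell and 7 were not called, with a median of -0.27, beside 10.2% higher and 63.4% lower of such genes. The values were therefore also centred within 20 bins of this share over 12375 protein-coding genes, and 16 members were then higher and 5 lower, against 33.9% and 24.5% of genes. They were 6 higher and 1 lower of the mitosis genes, 8 and 1 of the S phase genes, and 2 and 3 of the G1 genes, with medians of 0.29, 0.88 and -0.52, beside 0.15 for all centred genes.

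**Figure D3:**
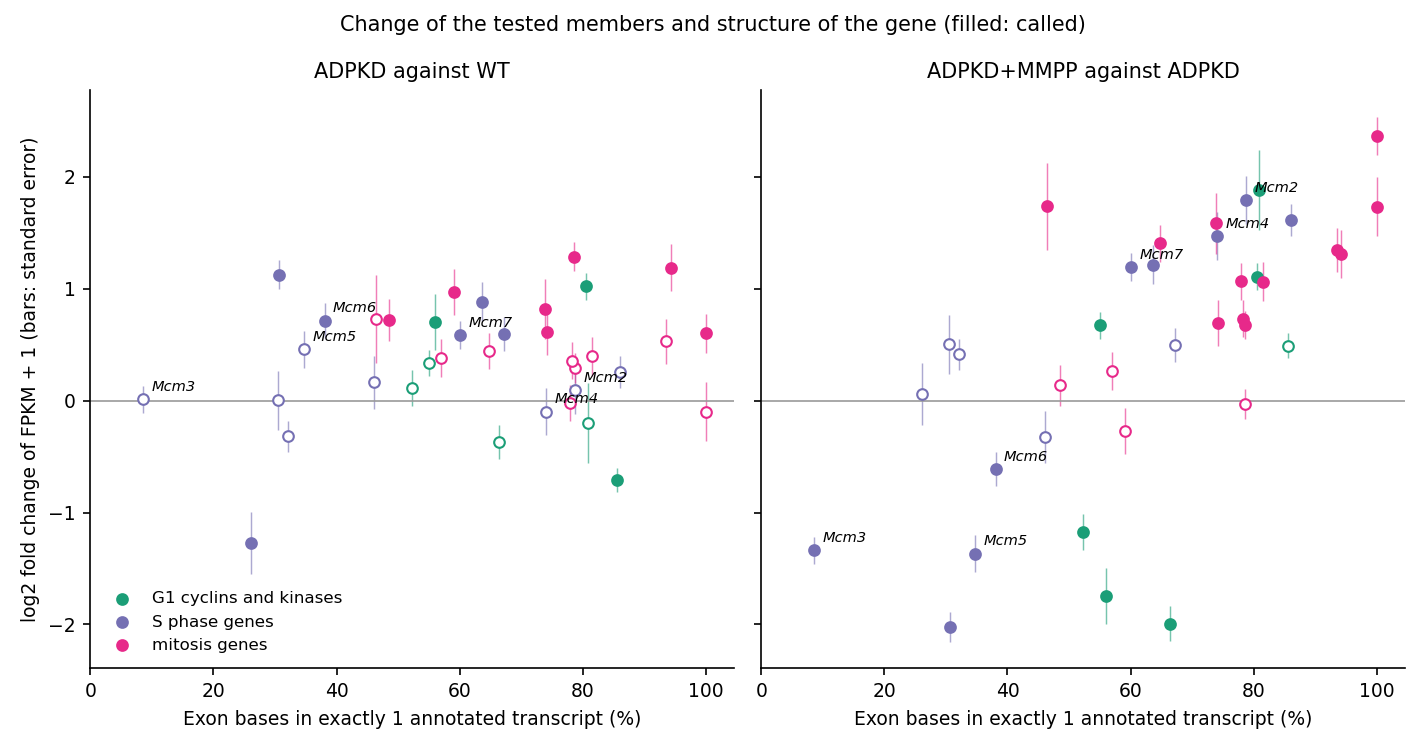
Log2 fold change of each tested member in ADPKD+MMPP against ADPKD (points, with bars of 1 SE, filled where called) against the share of its exon bases in exactly 1 annotated transcript, in percent. The 6 subunits of the MCM helicase are named, with *Mcm3* at 8.56% and -1.33, *Mcm5* at 34.8% and -1.37, and *Mcm2* at 78.7% and 1.79. The same is drawn for ADPKD against WT on the left.

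Within the MCM helicase, whose subunits act in equal numbers, the same split was seen. *Mcm3*, with 8.56% of bases in 1 transcript, had 5.40 and 5.29 FPKM in ADPKD and 1.67 and 1.37 in ADPKD+MMPP, and *Mcm5*, with 34.8%, had 3.60 and 2.97 FPKM in ADPKD and 0.467 and 0.872 in ADPKD+MMPP. *Mcm2*, with 78.7%, had 3.42 and 1.91 FPKM in ADPKD and 11.0 and 11.8 in ADPKD+MMPP, *Mcm4*, with 74.1%, had 8.25 and 5.12 FPKM in ADPKD and 20.1 and 19.6 in ADPKD+MMPP, and *Mcm7*, with 60.1%, had 5.10 and 5.30 FPKM in ADPKD and 13.2 and 13.2 in ADPKD+MMPP. Both ADPKD+MMPP libraries lay below both ADPKD libraries for *Mcm3* and *Mcm5* and above them for *Mcm2*, *Mcm4* and *Mcm7*. The log2 fold changes were -1.33, -1.37, 1.79, 1.47 and 1.20, and 0.78, 0.02, 0.98, 1.05 and 1.54 after centring. *Mcm6*, at 38.1%, had 6.27 and 5.94 FPKM in ADPKD and 4.21 and 3.14 in ADPKD+MMPP, a log2 fold change of -0.61 that was not called without ADPKD replicate 1 (-0.58) or ADPKD+MMPP replicate 2 (-0.45), and a centred value of 0.57. Before centring 3 of the 6 rose and 3 fell, and after it *Mcm2*, *Mcm3*, *Mcm4* and *Mcm7* were called higher and the other two were not called.

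*Mki67* rose from 3.59 and 2.02 FPKM in ADPKD to 8.64 and 7.85 in ADPKD+MMPP. All ADPKD+MMPP values were above all ADPKD values, with a log2 fold change of 1.31 (SE 0.21, adjusted p = 0.00212), and the centred value of 0.27 was not called (94.3% of bases in 1 transcript). *Top2a* rose from 1.99 and 0.709 to 6.30 and 5.31 FPKM, by 1.58 and after centring by 1.17, which was still called. *Cdc20* (5.55 and 1.75 FPKM in ADPKD and 14.0 and 12.4 in ADPKD+MMPP) and *Cks2* (16.7 and 12.8 FPKM in ADPKD and 72.5 and 87.4 in ADPKD+MMPP) likewise stayed called after centring, at 2.62 and 1.18 against 1.74 and 2.36 before it. Without ADPKD replicate 2 the uncentred value of *Cdc20* was 1.11, still called. *Ube2c* (2.14 and 1.79 FPKM in ADPKD and 3.97 and 3.49 in ADPKD+MMPP) did not: its 0.68 turned to -0.14 after centring. *Ccnb2* (5.61 and 3.14 FPKM in ADPKD and 14.2 and 18.9 in ADPKD+MMPP) and *Bub1b* (1.72 and 1.40 FPKM in ADPKD and 4.64 and 4.07 in ADPKD+MMPP) rose by 1.73 and 1.07, and their centred values of 0.55 and 0.25 were not called.

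*Plk1*, with 1.21 and 0.851 FPKM in ADPKD and 3.81 and 4.96 in ADPKD+MMPP, rose by 1.40, and its centred value of 1.39 was called too. Of the 8 untested mitosis genes, *Cdk1*, *Ccnb1*, *Aurka*, *Tpx2* and *Prc1* lay lower in ADPKD+MMPP than in ADPKD without overlap, *Bub1* lay higher, and *Aurkb* and *Nusap1* overlapped. Of genes above 0 in any library, 38.7% lay lower and 22.7% higher without overlap. *Cdk1* had 1.49 and 0.822 FPKM in ADPKD and 0.412 and 0.297 in ADPKD+MMPP, or 243 and 130 reads against 24 and 16. *Ccnb1* had 0.674 and 0.688 FPKM in ADPKD and 0.161 and 0.304 in ADPKD+MMPP, or 94 and 93 reads against 8 and 14. Unlike FPKM, these reads are not scaled for depth, which was 33.1 and 32.1 M in ADPKD and 11.8 and 10.9 M in ADPKD+MMPP. *Aurka* had 1.15 and 0.715 FPKM in ADPKD and 0.268 and 0.0724 in ADPKD+MMPP and *Tpx2* 1.87 and 0.940 FPKM in ADPKD and 0.579 and 0.392 in ADPKD+MMPP. Of the bases of *Cdk1*, *Ccnb1*, *Aurka*, *Tpx2* and *Prc1*, 71.2%, 44.9%, 24.1%, 6.95% and 62.4% lie in 1 transcript. With no filter, *Cdk1*, *Aurka* and *Tpx2* were called lower. *Ccna2* had 1.33 and 0.642 FPKM in ADPKD and 1.20 and 1.10 in ADPKD+MMPP and *Foxm1* 1.79 and 1.40 FPKM in ADPKD and 1.94 and 2.28 in ADPKD+MMPP. Neither was called (0.14 and 0.26), and both were called higher after centring (1.02 and 0.92). *Kif23* (3.51 and 5.33 FPKM in ADPKD and 3.71 and 3.16 in ADPKD+MMPP) overlapped between the groups and *Cenpa* (2.03 and 1.88 FPKM in ADPKD and 1.85 and 1.94 in ADPKD+MMPP) was close to equal, though its centred value of -0.84 was called lower.

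Of the other S phase genes, *Rrm1* had 2.77 and 2.14 FPKM in ADPKD and 8.88 and 10.2 in ADPKD+MMPP and *Rrm2* 3.90 and 4.18 FPKM in ADPKD and 9.54 and 12.0 in ADPKD+MMPP, with ADPKD+MMPP above ADPKD in every library. They rose by 1.61 and 1.22, and by 0.50 (not called) and 1.20 after centring. *Cdt1* fell from 6.72 and 7.87 to 1.02 and 1.05 FPKM, back below the WT libraries, with a log2 fold change of -2.02 (adjusted p = 7.15e-05) and a centred value of -0.64 that was still called. *Pcna* (67.2 and 55.1 FPKM in ADPKD and 81.1 and 81.7 in ADPKD+MMPP) and *E2f1* (2.20 and 0.890 FPKM in ADPKD and 1.34 and 1.80 in ADPKD+MMPP) were not called, at 0.41 and 0.06, and both were called higher after centring, at 1.80 and 1.78. *Mybl2* (1.10 and 1.31 FPKM in ADPKD and 2.34 and 1.90 in ADPKD+MMPP) was not called, and was called without ADPKD+MMPP replicate 2 (0.60).

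The D-type cyclins and their kinases were called in both directions in ADPKD+MMPP against ADPKD. *Ccnd1* rose from 35.2 and 15.4 to 90.0 and 87.5 FPKM. Both treated libraries were more than 2 times the higher ADPKD library, with a log2 fold change of 1.88 (SE 0.36, adjusted p = 0.00403) and a centred value of 1.07, also called. *Ccnd3* fell from 7.62 and 5.94 to 0.830 and 1.07 FPKM. Its log2 fold change of -1.99 (adjusted p = 0.000122) was the lowest of the tested G1 genes, and centring left it at -2.01. *Ccnd2* had 2.62 and 2.62 FPKM in ADPKD and 4.15 and 4.03 in ADPKD+MMPP. Its difference of 0.49 was under the fold threshold, and the centred value of -0.62 was called lower. *Cdk6* (3.22 and 3.42 FPKM in ADPKD and 7.80 and 8.84 in ADPKD+MMPP) rose by 1.11, with a centred value of 0.30 that was not called, and *Cdk4* (28.7 and 24.3 FPKM in ADPKD and 9.44 and 5.36 in ADPKD+MMPP) fell by 1.75, with a centred value of -1.09 that was called. *Cdk2* (4.68 and 5.37 FPKM in ADPKD and 1.36 and 2.004 in ADPKD+MMPP) fell by 1.18, and its centred value of -0.52 was not called. *Ccne1* (0.806 and 0.691 FPKM in ADPKD and 1.65 and 1.93 in ADPKD+MMPP) rose by 0.67 and by 1.33 after centring, while *Ccne2* was listed at 0 and 0.105 FPKM.

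Among the inhibitors, *Cdkn1a* fell from 128 and 175 to 26.6 and 26.3 FPKM. The log2 fold change was -2.46 (adjusted p = 8.76e-05) and -1.34 after centring, called in both cases. *Cdkn1c* fell again, to 0.332 and 0.674 FPKM (-2.95, centred -1.005). *Cdkn2d*, at 5.70 and 5.47 FPKM, fell by 1.16, and was called higher at 0.62 after centring. *Cdkn2b* rose further, to 48.01 and 57.4 FPKM (0.74, centred -0.43, not called). *Cdkn1b*, *Cdkn2a* and *Cdkn2c* were not called, though *Cdkn1b* was called lower without ADPKD replicate 1 (-0.73) or ADPKD+MMPP replicate 2 (-0.68), and *Cdkn2a* without ADPKD replicate 1 (-0.91). *Rb1* rose to 24.9 and 25.1 FPKM and *Rbl2* fell to 0.0224 and 0.0728 FPKM, with log2 fold changes of 1.74 and -2.28 and centred values of 0.93 and -0.90. Over the 9 lists by role, 40 of the tested genes rose and 46 fell, beside 27.9% and 43.0% of all tested genes, and 39 and 23 after centring, beside 33.9% and 24.5%.

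Other cells' markers moved with this contrast as well, where 27.9% of tested genes were higher and 43.0% lower, and 33.9% and 24.5% after centring. The 12 proximal tubule markers had 9 higher and 0 lower, and 11 and 0 after centring, and their sum went from 881 and 281 to 14146 and 13476 FPKM, with *Kap* the most abundant. Principal cell markers were 4 higher and 2 lower of 7 tested (2482 and 942 against 5417 and 5441 FPKM, most from *Aqp2*), 1 and 1 after centring, and 2 and 2 without either ADPKD+MMPP library. Intercalated cell markers were 6 higher of 7 both before and after centring (63.4 and 29.2 against 184 and 194 FPKM). The macrophage sum went from 523 and 633 to 1160 and 1212 FPKM, with 4 higher, *Lyz2* the most abundant, and 3 lower, *Csf1r* among them at 0.381 and 0.190 FPKM, and after centring 2 higher and 1 lower. Endothelial markers were 4 lower of 7, and 7 after centring (528 and 546 against 321 and 349 FPKM). Fibroblast and pericyte markers were 2 higher and 3 lower of 7, and 1 and 4 after centring (153 and 172 against 163 and 170 FPKM). Dissociation and stress genes were 7 higher and 2 lower of 10, and 7 and 1 after centring (6003 and 4456 against 12010 and 12182 FPKM, with *Junb* the most abundant).

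Thick limb and distal tubule markers were 2 higher and 1 lower of 6 in ADPKD+MMPP against ADPKD, and 5 and 0 after centring (631 and 191 against 202 and 201 FPKM). Before centring they were 3 and 0 without ADPKD replicate 1, 2 and 2 without ADPKD replicate 2, 1 and 0 without either ADPKD+MMPP library, and 1 and 1 without either WT library. Podocyte markers were 2 lower of 4, and 3 after centring (180 and 70.7 against 89.0 and 86.4 FPKM). General leukocyte markers were 1 higher and 1 lower of 5, or 2 lower without either WT library, and 0 higher and 2 lower after centring (49.9 and 51.9 against 62.6 and 53.8 FPKM). The part of these lists in the cell cycle result was not tested.

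In ADPKD+MMPP against WT, which shares its libraries with both comparisons above, 24 of 37 tested members were higher and 7 lower, against 30.1% and 43.8% of tested genes. The higher ones were 15 of 16 mitosis, 6 of 14 S phase and 3 of 7 G1 genes, and the lower ones 4 S phase and 3 G1 genes. With no filter 25 were higher and 8 lower of 48, against 15.0% and 22.4%. After centring by exon sharing 26 were higher (12 mitosis, 11 S phase and 3 G1) and 2, *Ccnd2* and *Ccnd3*, lower, against 35.8% and 26.8% of genes. Median log2 fold changes were 1.55, 0.30 and -0.22 in the order mitosis, S phase and G1, with all tested genes at -0.36, and 1.05, 0.90 and -0.39 after centring, with all centred genes at 0.17. Cell type markers moved with this contrast too. Proximal tubule markers were 10 higher and 0 lower of 12, and macrophage markers 5 and 1 of 7. Endothelial markers were 1 and 6 of 7, and podocyte markers 0 and 4 of 4. Principal cell markers were 2 and 1 of 7, and intercalated cell markers 1 and 1 of 7. After centring, these lists were 10 and 0, 6 and 1, 0 and 6, 0 and 4, 1 and 1, and 0 and 5. The part of these lists was not tested.

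So *Mki67* stood at 8.64 and 7.85 FPKM in ADPKD+MMPP against 0.666 and 0.594 in WT, with a log2 fold change of 2.50 and a centred value of 1.33, both called. *Ube2c* and *Cdk6* were called higher in ADPKD than in WT and also in ADPKD+MMPP than in WT, at 1.96 and 2.13 (centred 1.14 and 1.30). *Ccnd1*, not called in ADPKD against WT, was called higher than in WT after treatment, at 1.68 (centred 0.85). Of the S phase genes called lower than in WT after treatment, *Mcm3* went from -1.32 to 0.66 on centring and was then called higher, and *Mcm5* from -0.91 to 0.45, no longer called. *Cdt1* and *E2f1* were lower too, at -0.89 and -1.22, and their centred values of 0.46 and 0.45 were of the other sign and not called. *Foxm1*, at 0.65, lost its call without WT replicate 2 (0.47) or ADPKD+MMPP replicate 2 (0.57).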

How the data were processed

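RNA-seq of 6 libraries in 3 groups was taken as the authors deposited it, as FPKM per gene symbol. According to the submitters' processing notes and the study's methods, reads were aligned to GRCm38 (mm10) with HISAT2 2.1.0 and counted with featureCounts 1.6.0. The annotation release and the step from counts to FPKM are not given in the sources used here. The study tested counts with DESeq2, which was not applied to the deposited FPKM here.

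The 14862 genes that reached 1 FPKM in 2 or more libraries were tested with limma 3.58.1 in R 4.3.3 on log2(FPKM + 1), in a single fit over all libraries so that the groups share an estimate of the spread, with Benjamini-Hochberg adjustment over all of them. The step was tested on simulated data for ADPKD against WT, with changes only in genes whose WT mean of log2(FPKM + 1) was above 2. It was therefore not tested at the low WT levels of most mitosis genes, nor for the comparisons with ADPKD+MMPP. Calls needed a fold change of 1.5 or more and an unadjusted p under 0.05, the study's thresholds. Exon lengths, transcripts and overlaps came from GENCODE vM21, where 53186 symbols matched, and promoters from RefSeq. Depth sets the precision of each value, since 1 read is worth more FPKM in a shallow library.

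All 48 members could be named. Values of every library were given for all G1 genes, for preset core genes and for the most abundant and most changed of the S phase and mitosis lists, and from the other lists for CDK inhibitors, pocket proteins, the largest called changes and the most abundant or near-absent markers. Members and lists were chosen with earlier results of these data known. Alternatives covered the pseudocount, filter, scaling, thresholds, fit, exon sharing, a replicate block and each library left out.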

Additional observations from a re-analysis of the deposited data

How the results depend on the processing

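The depth of the libraries, 10.9 to 33.1 M reads, limits what can be said of genes under 1 FPKM, which most mitosis genes were in WT. In ADPKD against WT, 14 members were higher and 2 lower. With each library left out in turn these counts ranged from 9 to 14 and from 2 to 3, and the medians from 0.0448 to 0.37 for G1, 0.0623 to 0.39 for S phase and 0.30 to 0.75 for mitosis genes, where a lone library of a group was assumed to vary like the others. A fold change of at least 2 gave 4 higher and 1 lower, and quantile normalization, median-ratio scaling and centring by exon sharing each 10 higher. The setting of at least 70% of exon bases in 1 transcript, here and below, rests on 3 G1, 3 S phase and 11 mitosis genes. The G1 median was -0.0435 when 4 libraries had to reach 1 FPKM and -0.27 over genes with at least 70% of exon bases in 1 transcript, the S phase median 0.31 with a pseudocount of 0.1 and 0.0302 over those genes, and the mitosis median 1.28 with that pseudocount and 0.87 with each library scaled to the same sum. The replicate numbers were not used to pair the libraries. Deviations of same-numbered libraries from their group means correlated across genes with r of 0.129 (WT and ADPKD), -0.00796 (WT and ADPKD+MMPP) and 0.0137 (ADPKD and ADPKD+MMPP). With 2 libraries a group, these values cannot show whether the numbers pair the libraries. With the replicate block the counts were 14 higher and 2 lower, 20 and 7 after MMPP, and 24 and 7 for ADPKD+MMPP against WT.

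In ADPKD+MMPP against ADPKD, leaving out each library gave 18 to 21 higher and 6 to 7 lower members, and medians of 0.48 to 0.51, 0.23 to 0.50 and 0.92 to 1.21 for G1, S phase and mitosis genes. The filter on 4 libraries left 29 members, of which 13 were higher, against 27.9% of the 12492 genes that passed it. With no filter, 12 of 48 members were lower, against 21.7% of genes. In the same order of lists, medians were 0.62, 0.54 and 1.64 with the pseudocount of 0.1, -0.19, 0.24 and 0.65 with no filter, 1.08, 0.91 and 1.67 with quantile normalization, -0.52, 0.88 and 0.29 centred by exon sharing, and 0.20, 0.71 and 0.16 over genes with at least 70% of bases in 1 transcript. G1 and S phase medians were 0.31 and 0.23 with equal sums and 0.66 and 0.63 with median-ratio scaling, and the G1 median was -0.34 with the filter on 4 libraries. *Ccnd2* turned to -0.62 and *Ube2c* to -0.14 when centred, and *Ube2c* to -0.23 over genes with at least 70%. *Cenpf*, called higher at 0.73, turned to -0.08 when centred and to -0.17 over those genes. *Birc5*, called higher at 0.69, was 0.28 when centred and turned to -0.21 over those genes. Without ADPKD replicate 2, *Birc5* stood at 0.44 and *Cenpf* at 0.53, and *Birc5* stood at 0.56 without ADPKD+MMPP replicate 1.

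In ADPKD+MMPP against WT, leaving out each library gave 23 to 24 higher and 7 to 7 lower, and medians of -0.23 to -0.20, 0.25 to 0.44 and 1.44 to 1.67. Quantile normalization gave 3 lower and centring 2, against 32.9% and 26.8% of all genes lower in these settings. Medians of G1, S phase and mitosis genes were -0.52, 0.10 and 1.07 with no filter, 0.34, 0.88 and 1.89 with quantile normalization, -0.62, 0.0043 and 2.096 with equal sums, -0.0846, 0.44 and 1.67 with median-ratio scaling, -0.39, 0.90 and 1.05 when centred, and 0.71, 0.90 and 0.67 over genes with at least 70% of bases in 1 transcript. With the pseudocount of 0.1 the G1 and mitosis medians were -0.26 and 2.96, and with the filter on 4 libraries the G1 median was -0.63. *Cdt1* turned to 0.46 and *E2f1* to 0.45 when centred, *Mcm5* to 0.45, and *Mcm3* from -1.32 to 0.66, called in both cases. The cause of these shifts was not tested.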
